A study of Mus musculus with 9 samples.

Results

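Dbp, Tef, Hlf and Nfil3 are 4 of the 13192 genes in a table of RNA-seq read counts from the mouse heart apex, and they were taken from it by gene symbol. All 4 are present, and the filter on low counts removed 0 genes. The genes, and the ratio of Dbp to Nfil3, were picked with the AAV-Osm against AAV-Null difference of these libraries already known. Their levels and differences in that comparison are therefore given as a description with no p-value, and whether they passed a fit across all genes is stated only beside the share of all genes that did. Every animal was a wild-type male C57BL/6J mouse given 1e+11 particles of adeno-associated virus (AAV) in the right gastrocnemius, a leg muscle, when 10 weeks old, and the heart apex was taken 12 weeks later. The AAV-Osm vector carries the gene of oncostatin M, a cytokine of the interleukin-6 family, and the control vector is called AAV-Null. By its title, the study is about what oncostatin M given from outside does to cardiac function, to muscle and skeleton, and to scarring. There were 4 AAV-Null and 5 AAV-Osm libraries, each listed as its own sample without a statement that it came from a separate mouse, so error values measure the spread between these samples. The sources used here give neither the promoter of the vector nor the time of day at collection.

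Dbp, Tef and Hlf are the proline and acidic amino acid-rich (PAR) members of the basic leucine zipper (bZIP) transcription factors. They activate genes through a DNA element called the D-box, and their messenger RNAs cycle over the day in heart, liver and kidney under the control of the circadian clock. Nfil3, also called E4bp4, is a bZIP repressor that binds the same element and cycles in antiphase to Dbp. The clock heterodimer of Arntl and Clock drives Dbp through E-boxes, while the nuclear receptors Nr1d1 and Nr1d2 repress Nfil3 and Arntl through elements called RORE, where the Ror proteins activate.

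The promoters are printed here because the E-box and the RORE are the entry points of the clock into these genes. The sequences are the 250 bases before each annotated start site, from RefSeq on GRCm38.p6, which is the mm10 genome, read 5′ to 3′ on the strand of the gene in lower case. Capitals mark a match to the E-box CACGTG, to the RORE core TAGGTCA or its reverse complement TGACCTA, or to the D-box TTATGTAA, its reverse complement TTACATAA or the palindrome TTACGTAA. Tef has a pair of start sites with a window each.

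Dbp promoter (chr7:45704997-45705246, plus strand): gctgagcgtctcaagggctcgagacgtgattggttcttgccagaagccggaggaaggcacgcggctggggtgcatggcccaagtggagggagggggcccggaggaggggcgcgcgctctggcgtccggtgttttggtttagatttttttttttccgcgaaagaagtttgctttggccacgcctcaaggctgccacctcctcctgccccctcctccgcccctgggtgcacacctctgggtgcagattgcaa
Tef upstream promoter (chr15:81802423-81802672, plus strand): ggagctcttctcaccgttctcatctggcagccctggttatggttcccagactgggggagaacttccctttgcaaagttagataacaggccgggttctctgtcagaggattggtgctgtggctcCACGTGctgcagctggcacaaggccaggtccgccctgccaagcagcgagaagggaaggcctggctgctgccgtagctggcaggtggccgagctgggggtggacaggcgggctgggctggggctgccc
Tef downstream promoter (chr15:81811164-81811413, plus strand): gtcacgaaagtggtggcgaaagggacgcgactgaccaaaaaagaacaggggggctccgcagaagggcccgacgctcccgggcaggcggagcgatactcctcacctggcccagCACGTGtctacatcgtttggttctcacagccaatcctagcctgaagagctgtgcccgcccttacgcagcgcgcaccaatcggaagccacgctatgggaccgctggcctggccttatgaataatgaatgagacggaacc
Nfil3 promoter (chr13:52981040-52981289, minus strand): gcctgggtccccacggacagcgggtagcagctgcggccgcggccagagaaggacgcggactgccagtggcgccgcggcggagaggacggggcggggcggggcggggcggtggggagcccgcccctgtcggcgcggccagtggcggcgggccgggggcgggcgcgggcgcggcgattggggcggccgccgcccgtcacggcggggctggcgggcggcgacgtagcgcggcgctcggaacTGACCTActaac

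An E-box stood in both Tef windows, its first base 127 bases before the upstream start site and 138 bases before the downstream one. The RORE core stood in the Nfil3 window, beginning 12 bases before the start site. In windows of 300 bases that also take in the first 50 transcribed bases, none of the 3 motifs was found for Dbp or Hlf, and no D-box was found for any of the 4 genes. Over all 32851 such windows, 7.15% held the E-box, 2.61% the RORE core and 1.06% the D-box. A match is a description of letters, not a binding site, and a window without a match says nothing of more distant elements.

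Dbp (chromosome 7, 45705247 to 45710203, plus strand, mm10, 4 counted exons) is named for the D site of the albumin promoter, where its protein was found. It was at 41.5, 26.1, 46.1 and 62.7 CPM in AAV-Null 1 to 4 and at 137, 151, 125, 80.9 and 117 CPM in AAV-Osm 1 to 5. CPM is the read count scaled to the size of the library, which was corrected by TMM, the trimmed mean of M-values. The groups did not overlap, and the lowest AAV-Osm library, AAV-Osm 4, stood above the highest AAV-Null library, AAV-Null 4. The mean was 44.1 ± 15.0 CPM (SD, n = 4) in AAV-Null and 122 ± 26.3 CPM (SD, n = 5) in AAV-Osm hearts. The fitted log2 fold change was 1.47 (SE 0.24), a 2.77-fold difference. In bulk tissue, a change in the number of cells of a type and a change in RNA per cell cannot be told apart.

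Tef (chromosome 15, 81802673 to 81826863, plus strand, mm10, 5 counted exons), first known as thyrotroph embryonic factor, was higher in AAV-Osm by less than Dbp. It was at 62.3, 44.4, 51.6 and 45.0 CPM in AAV-Null 1 to 4 and at 113, 85.5, 69.3, 56.6 and 83.3 CPM in AAV-Osm 1 to 5. AAV-Null 1 lay above AAV-Osm 4, so the groups overlapped by this pair of libraries. Means were 50.8 ± 8.29 CPM (SD, n = 4) and 81.5 ± 21.0 CPM (SD, n = 5), which makes 0.68 (SE 0.19) as log2 fold change.

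Hlf (chromosome 11, 90336535 to 90390917, minus strand, mm10, 4 counted exons), hepatic leukemia factor, had the smallest difference of the 4. Its level was 25.4, 17.9, 11.0 and 18.8 CPM in AAV-Null 1 to 4 and 29.2, 19.8, 18.8, 21.9 and 22.4 CPM in AAV-Osm 1 to 5. AAV-Null 3 was the lowest library, and AAV-Null 1 was above every AAV-Osm library except AAV-Osm 1. Means were 18.3 ± 5.88 CPM (SD, n = 4) and 22.4 ± 4.06 CPM (SD, n = 5), and the log2 fold change of 0.30 had an SE of 0.21.

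Nfil3 (chromosome 13, 52967209 to 52981039, minus strand, mm10, 2 counted exons), the repressor, went the other way. It was at 16.1, 22.7, 15.1 and 12.9 CPM in AAV-Null 1 to 4 and at 8.53, 7.46, 11.7, 9.75 and 7.45 CPM in AAV-Osm 1 to 5. Every AAV-Osm library was below every AAV-Null library, with AAV-Osm 3 closest to AAV-Null 4. The mean was 16.7 ± 4.20 CPM (SD, n = 4) against 8.99 ± 1.80 CPM (SD, n = 5). This is a level 1.87-fold lower, with a log2 fold change of -0.90 (SE 0.19).

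**Figure D1:**
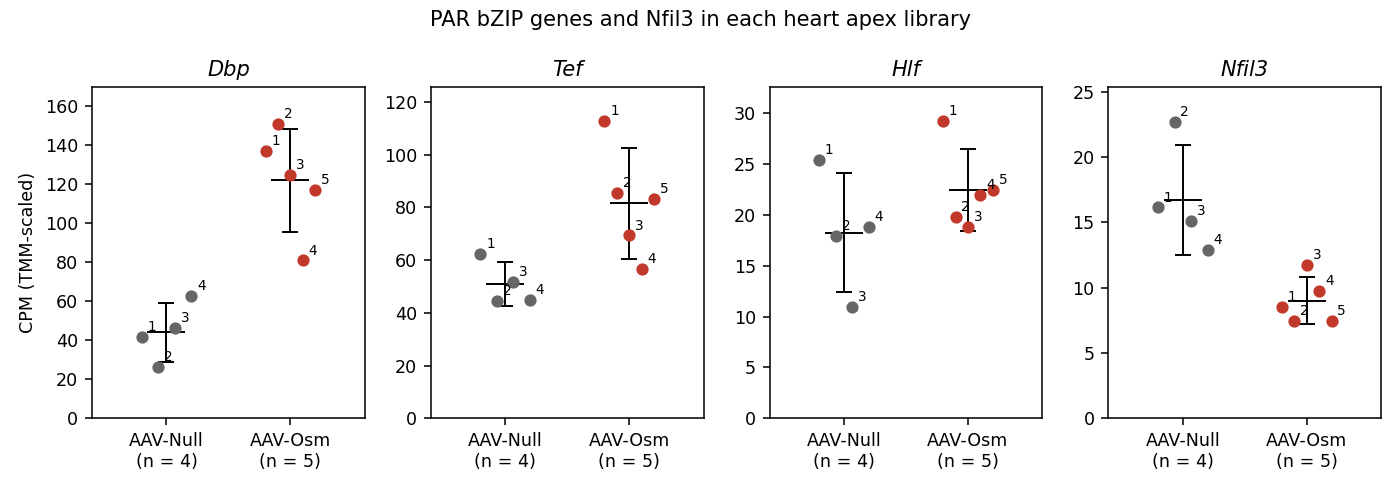
CPM (vertical axis, from 0) of Dbp, Tef, Hlf and Nfil3 in 4 AAV-Null (grey) and 5 AAV-Osm (red) libraries, with the library number beside each point and bars for the mean and SD. The groups are separate for Dbp, higher in AAV-Osm, and for Nfil3, lower in AAV-Osm, and overlap for Tef and Hlf.

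Across all genes, 16 of 13192, or 0.121%, passed edgeR's adjusted threshold of 0.05, and Dbp was 1 of them, while Tef, Hlf and Nfil3 were not. The groups did not overlap for 301 genes, 2.28% of those tested. Of these, 139 were higher in AAV-Osm, 1.05%, with Dbp among them, and 162 were lower, 1.23%, with Nfil3 among them. Since the genes were chosen from this comparison, nothing is read from these counts. By the size of the log2 fold change in either direction, 0.349% of genes were at or above Dbp, 1.52% at or above Nfil3, 3.23% at or above Tef and 19.2% at or above Hlf. The median over all genes was 0.01.

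The Dbp call did not survive the loss of most single libraries, although its size changed little. It was lost without AAV-Null 1 (log2 fold change 1.44), AAV-Null 2 (1.28) or AAV-Null 3 (1.49), and without AAV-Osm 1 (1.43), AAV-Osm 2 (1.38), AAV-Osm 3 (1.46) or AAV-Osm 5 (1.49). It was kept without AAV-Null 4 (1.69) and without AAV-Osm 4 (1.58). With 1 library left out, 4 to 11 of all genes passed, against 16 with every library. Nfil3 passed in limma-voom with quality weights, where 170 of all genes did, and in DESeq2, where 53 did. It passed in none of the other 18 alternatives to the edgeR fit, while Tef and Hlf passed in 0 of 20. The direction of each of the 4 genes was the same in all 20. For Dbp and Nfil3, whose groups did not overlap, leaving out libraries could hardly reverse it. The fit with no filter only repeats the edgeR fit, since 0 genes were removed. Dispersions that are not robust left these log2 fold changes unchanged.

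Part of the Dbp exons shares its place with another gene. In the GENCODE M21 annotation, 539 of the 1678 counted Dbp bases, 32.1%, also lie in exons of Sphk2, a sphingosine kinase gene on the opposite strand, and the sources used here do not say whether reads were counted by strand. Sphk2 was at 22.4 ± 1.56 CPM (SD, n = 4) in AAV-Null and 20.7 ± 2.45 CPM (SD, n = 5) in AAV-Osm hearts, with overlapping groups and a log2 fold change of -0.11 (SE 0.13). The exons of Tef, Hlf and Nfil3 overlapped those of 0 other genes there.

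The balance of activator to repressor was read as the ratio of Dbp to Nfil3 CPM within each library, a value that library scaling cannot alter. Across AAV-Null 1 to 4 the ratio was 2.57, 1.15, 3.05 and 4.86. Across AAV-Osm 1 to 5 it was 16.0, 20.2, 10.6, 8.29 and 15.7. The lowest AAV-Osm ratio was 1.71 times the highest AAV-Null ratio. Means were 2.91 ± 1.53 (SD, n = 4) and 14.2 ± 4.73 (SD, n = 5), and the mean log2 ratio was higher by 2.39 (SE 0.49) in AAV-Osm, a 5.24-fold difference.

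The other activators gave the same order against Nfil3 at a smaller size. Tef to Nfil3 ranged from 1.96 to 3.86 in AAV-Null and from 5.80 to 13.2 in AAV-Osm, a difference of 1.54 (SE 0.34) on the log2 scale. Hlf to Nfil3 ranged from 0.726 to 1.57 in AAV-Null and from 1.61 to 3.43 in AAV-Osm, a difference of 1.23 (SE 0.35). The ratios of both to Nfil3 separated the groups, as Nfil3 alone already did, while neither Tef nor Hlf did alone. AAV-Null 1 and AAV-Osm 3 nearly touched for Hlf. Between the group means of log2 level, Nfil3 itself differed by -0.89, Tef by 0.66 and Hlf by 0.34. Nfil3 thus gave the larger part of both differences. All 3 ratios share Nfil3 as their denominator and are not independent of each other.

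**Figure D2:**
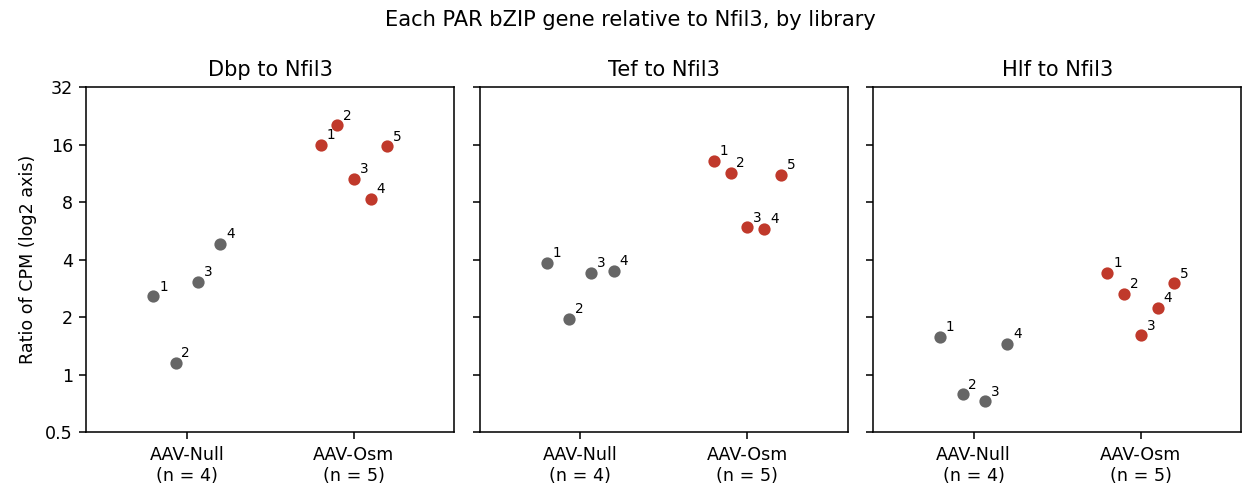
Ratio of Dbp, Tef and Hlf CPM to Nfil3 CPM (vertical log2 axis) in each of 4 AAV-Null (grey) and 5 AAV-Osm (red) libraries, numbered. The Dbp ratio runs from 1.15 to 4.86 in AAV-Null and from 8.29 to 20.2 in AAV-Osm, and the gap between the groups narrows from Dbp to Tef to Hlf.

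Levels of different genes were compared per kilobase of exon. In AAV-Null hearts Dbp was at 26.3 ± 8.97 CPM per kilobase (SD, n = 4), Tef at 11.4 ± 1.86, Nfil3 at 8.39 ± 2.11 and Hlf at 3.22 ± 1.04. Tef and Nfil3 were neighbours that overlapped in that order, and in AAV-Null 2 Nfil3 at 11.4 CPM per kilobase was above Tef at 9.97. In AAV-Osm hearts Dbp was at 72.7 ± 15.7 CPM per kilobase (SD, n = 5), Tef at 18.3 ± 4.71, Nfil3 at 4.51 ± 0.904 and Hlf at 3.96 ± 0.716. There Nfil3 and Hlf overlapped, and in AAV-Osm 1 and AAV-Osm 5 Hlf was above Nfil3.

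Summed per kilobase, the 3 activators came to 43.2, 28.7, 41.0 and 50.8 CPM per kilobase across AAV-Null 1 to 4 and to 112, 113, 93.1, 64.8 and 92.4 across AAV-Osm 1 to 5. Dbp made up 54.3% to 73.6% of that sum in AAV-Null and 72.8% to 79.9% in AAV-Osm, overlapping ranges. The Hlf part was 4.73% to 11.0% in AAV-Null and 3.11% to 5.98% in AAV-Osm. The sum stood at 5.27 ± 2.17 (SD, n = 4) times Nfil3 in AAV-Null and 22.0 ± 7.14 (SD, n = 5) times Nfil3 in AAV-Osm hearts.

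**Figure D3:**
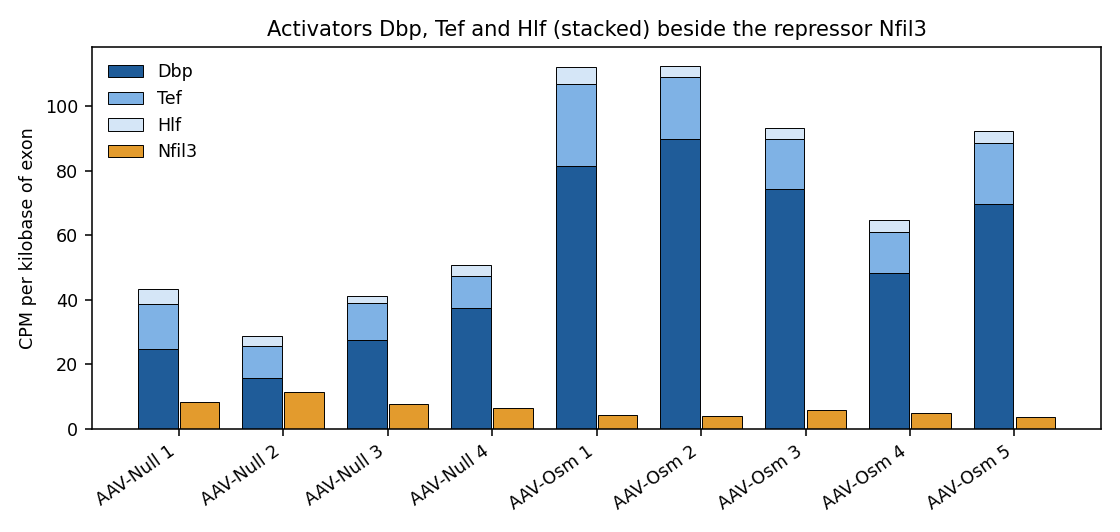
CPM per kilobase of exon (vertical axis, from 0) in each library, with Dbp, Tef and Hlf stacked in blues beside Nfil3 in orange. The stacks reach 28.7 to 50.8 in AAV-Null and 64.8 to 113 in AAV-Osm, and Dbp is the largest part of every stack.

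Within a group, libraries differed in Dbp by more than counting error. The lowest Dbp value, in AAV-Null 2, rested on 635 counts, whose exact Poisson interval of 95% spans 24.2 to 28.3 CPM, against 62.7 CPM in AAV-Null 4. Nfil3 is the most thinly counted of the 4 genes, at 112 counts in AAV-Osm 4, with an interval from 8.03 to 11.7 CPM. These intervals cover counting error only.

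In the AAV-Null libraries, Dbp ran upward in the order AAV-Null 2, 1, 3 and 4, and Nfil3 ran downward in exactly that order. In the AAV-Osm libraries Nfil3 had no such order: from the lowest Dbp to the highest, AAV-Osm 4, 5, 3, 1 and 2, it was at 9.75, 7.45, 11.7, 8.53 and 7.46 CPM. With each gene's group mean removed from its log2 CPM, Dbp and Nfil3 had a Pearson r of -0.73 over 9 libraries (exact two-sided permutation within groups, p = 0.0563) and a Spearman rho of -0.67 (exact p = 0.0861). Adjusted over the 6 pairs of genes by the Benjamini-Hochberg method these were 0.338 and 0.397, so the relation did not pass. Without AAV-Null 2 and AAV-Osm 4, the libraries farthest from the median of the centred Dbp values, r was -0.51.

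Dbp with Tef had an r of 0.45 (exact permutation p = 0.212) and a rho of 0.42 (exact p = 0.265), and r was -0.29 without AAV-Null 2 and AAV-Osm 4. Tef with Hlf had an r of 0.43 (exact permutation p = 0.201) and a rho of 0.48 (exact p = 0.169). For Dbp with Hlf r was -0.04 (exact permutation p = 0.955) and for Hlf with Nfil3 it was -0.04 (exact p = 0.938). For Tef with Nfil3 r was -0.38 (exact permutation p = 0.317). The smallest adjusted p over the 6 pairs was 0.338, so no pair of members was shown to vary together between libraries of one group.

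**Figure D4:**
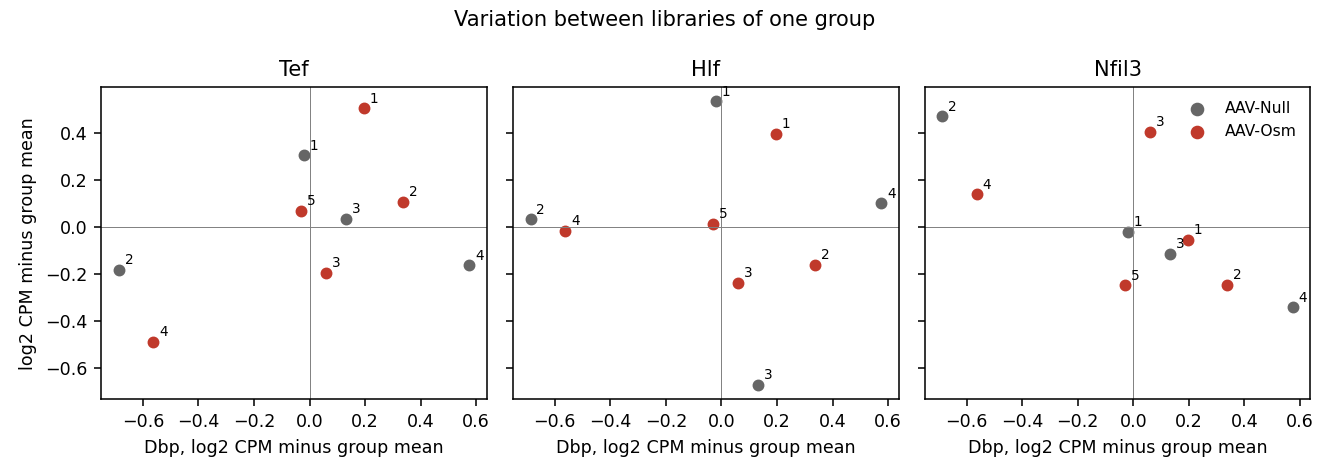
Log2 CPM of Tef, Hlf and Nfil3 (vertical axis) against that of Dbp (horizontal axis), each minus its group mean, for 4 AAV-Null (grey) and 5 AAV-Osm (red) numbered libraries. Nfil3 falls from AAV-Null 2 at the left to AAV-Null 4 at the right, with no such order in AAV-Osm (r = -0.73 over all 9 libraries). Tef (r = 0.45) and Hlf (r = -0.04) are scattered.

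Libraries that were close over all genes were not always close in these genes. AAV-Null 1 and AAV-Null 2 were the closest AAV-Null pair by a chi-square statistic over genes (6.52 per degree of freedom, against 45.0 to 98.1 for the other AAV-Null pairs), yet Dbp differed 1.59-fold and Nfil3 1.41-fold between them. AAV-Osm 2 and AAV-Osm 3, the closest AAV-Osm pair at 9.68, differed 1.21-fold in Dbp and 1.57-fold in Nfil3. Likeness over all genes did not always follow the groups. AAV-Null 1 and AAV-Null 2 were at 17.3 and 18.6 with AAV-Osm 4, but at 62.9 to 98.1 with AAV-Null 3 and AAV-Null 4. The cause was not tested.

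Ranked by the group-centred correlation over 9 libraries among 12044 other genes, Foxo6 (r = 0.99), Aldh3b1, Ints5, Rnf113a1 and Pramef8 (r from 0.93 to 0.94) were most like Dbp. Their log2 fold changes ran from -0.27 (SE 0.32, Rnf113a1) to 0.28 (SE 0.31, Aldh3b1), against 1.47 for Dbp. Cdr2l (r = 0.94), Polrmt (r = 0.93), Tm7sf2 (r = 0.92), Rfng (r = 0.88) and BC037034 (r = 0.87) were most like Nfil3. With 9 libraries and so many genes these r values are a ranking only, with no test.

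Upstream of the members, 7 regulators are reported: Arntl, Clock and Npas2, whose proteins form the activating complexes, and 4 nuclear receptor genes. Of these 0 passed in edgeR, 2 had an unadjusted p under 0.05 (5.97% of all genes did), and 1, Arntl, passed in limma-voom with quality weights and in DESeq2. Arntl was at 7.32, 10.2, 6.64 and 4.70 CPM in AAV-Null 1 to 4 and 2.15, 2.83, 2.95, 3.83 and 4.23 CPM in AAV-Osm 1 to 5. Its groups did not overlap. Its order was that of Nfil3 in AAV-Null but not in AAV-Osm. The group-centred r of Arntl with Nfil3 was 0.47 over 9 libraries, which ranked 972 among 12044 genes. The log2 fold change of Arntl was -1.19 (SE 0.25), with an adjusted p of 0.186 in edgeR. Without AAV-Null 4, its lowest AAV-Null library, and AAV-Osm 5, its highest AAV-Osm library, Arntl passed in edgeR, at -1.48. Leaving out the libraries nearest each other widens the difference by itself, so this pass adds no support. Of the 7 regulators, Arntl was the only one with the RORE core in its promoter window.

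For Clock, the partner of Arntl, the log2 fold change was -0.21 (SE 0.16), with an adjusted p of 0.934 in edgeR. It was -0.12 without AAV-Null 2, -0.14 without AAV-Osm 3 and -0.45 with quality weights. Nr1d1, the most abundant regulator per kilobase, was at 84.5 ± 10.7 CPM (SD, n = 4) in AAV-Null and 112 ± 25.2 CPM (SD, n = 5) in AAV-Osm, which is 0.41 (SE 0.18) on the log2 scale, with an adjusted p of 0.796 in edgeR. Nr1d2 stood at 0.65 (SE 0.32), with 0.866, but at 0.078 with quality weights, 0.32 without both AAV-Null 3 and AAV-Null 4, and 0.25 without both AAV-Null 4 and AAV-Osm 5. Rora, an activating receptor at the RORE, was at 0.12 (SE 0.18) and changed sign in some alternatives. Over the 7 regulators the median was 0.12.

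Of 8 clock repressor genes, which feed back on Arntl and Clock, 1 rose and 0 fell in edgeR, where 0.0834% of all genes rose and 0.0379% fell. An unadjusted p under 0.05 was found for 5 of the 8 (5.97% of all genes), and limma-voom called 1, or 2 with quality weights, and DESeq2 called 2. The gene that rose was Ciart, a repressor of the Arntl and Clock complex. Ciart was at 3.61, 2.51, 2.80 and 3.47 CPM in AAV-Null 1 to 4 and 12.4, 9.86, 7.43, 6.01 and 16.3 CPM in AAV-Osm 1 to 5, without overlap. Its log2 fold change was 1.76 (SE 0.28), with an adjusted p of 0.0349 in edgeR. Its call was lost without AAV-Null 1 (1.84), AAV-Null 2 (1.67), AAV-Null 3 (1.71), AAV-Null 4 (1.82), AAV-Osm 1 (1.69) or AAV-Osm 2 (1.78), without both AAV-Null 3 and AAV-Null 4 (1.78), and with total counts in place of TMM (1.76). Per1, the other gene called in DESeq2 and with quality weights, ran from 17.3 to 19.9 CPM in AAV-Null and from 26.1 to 32.9 CPM in AAV-Osm, also without overlap. It stood at 0.61 (SE 0.13), with an adjusted p of 0.171 in edgeR. Bhlhe40 and Cry2, the most abundant repressor genes per kilobase, had log2 fold changes of 0.34 (SE 0.35) and 0.39 (SE 0.15). Bhlhe40 turned negative without AAV-Osm 5 (-0.09) and was at 0.15 without AAV-Null 4. The list's median was 0.57, and 7 of 8 values were positive. The E-box was in the windows of 4 of the 6 repressor genes that had a window, namely Ciart, Per1, Bhlhe41 and Cry1, the last at -0.38 (SE 0.24).

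**Figure D5:**
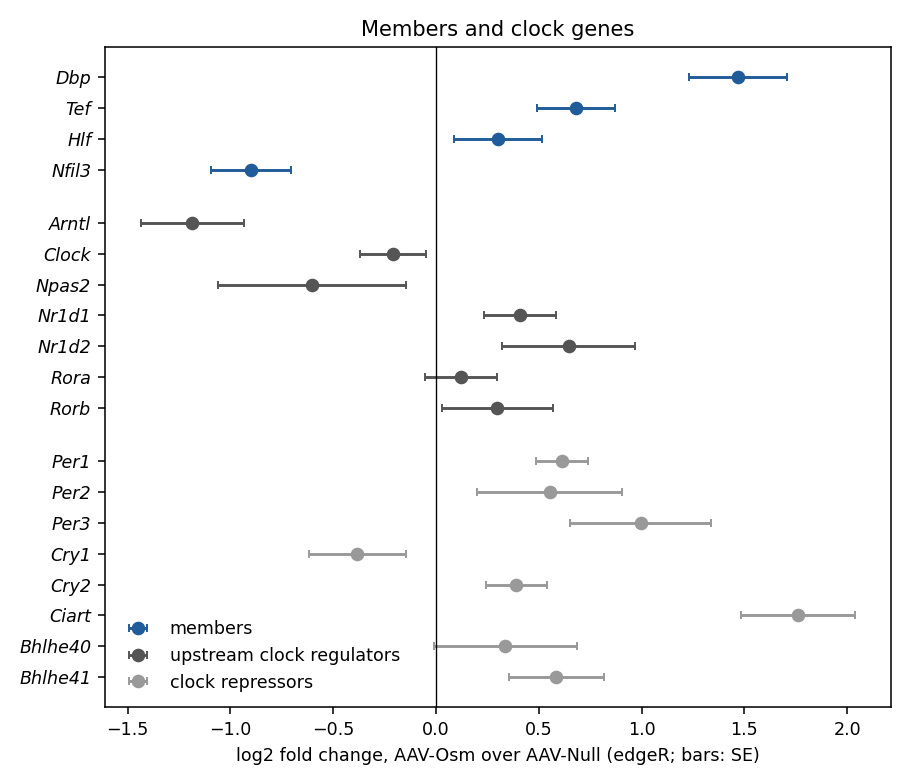
Log2 fold change of AAV-Osm over AAV-Null (horizontal axis, edgeR, bars for SE) of the 4 members (blue), 7 upstream regulators (dark grey) and 8 clock repressors (light grey). Nfil3 and Arntl lie furthest to the left, at -0.90 and -1.19, and Dbp and Ciart furthest to the right, at 1.47 and 1.76.

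Downstream, 11 of 16 listed genes reported in other tissues to depend on Dbp, Tef and Hlf were tested, and the other 5 were not analysed here. In edgeR 0 passed, 0 had an unadjusted p under 0.05, and DESeq2 and limma-voom, with and without quality weights, called 0. Their median log2 fold change was -0.06, with 4 positive and 7 negative. Usp2, a ubiquitin-specific protease gene, was the most abundant per kilobase, at 250 ± 42.6 CPM (SD, n = 4) in AAV-Null and 315 ± 62.5 CPM (SD, n = 5) in AAV-Osm, which is 0.34 (SE 0.18) on the log2 scale, with an adjusted p of 0.883 in edgeR. Alas1, the first enzyme of heme synthesis, was at 173 ± 21.1 and 152 ± 10.3 CPM, which is -0.19 (SE 0.13), with 0.934, and -0.098 without AAV-Null 2. Por, the electron donor of cytochrome P450 enzymes and a PAR bZIP target in liver, was named after its values were seen and stood at -0.08 (SE 0.13).

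A D-box stood in the promoter window of 88 of the 10011 tested genes that had a window. Of these 88, 0 passed in edgeR, and 5 had an unadjusted p under 0.05, as did 566 of the 10011. DESeq2 called 1 of the 88, limma-voom 0 and limma-voom with quality weights 2. The median log2 fold change of the 88 was -0.01, against 0.01 for all genes with a window, and 47.7% were positive against 52.0%. The median was 0.01 for 231 genes with the RORE core and 0.02 for 1179 with the E-box.

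Among the other bZIP factors, 41 of 49 listed were tested. In edgeR 0 passed, and 3 had an unadjusted p under 0.05 (5.97% of all genes did). In limma-voom with quality weights 2 passed, Jdp2 and Creb3l1, both lower. DESeq2 called 0, and limma-voom without weights called 0. The median was -0.16, with 31 of 41 below 0. Nfe2l1 and Atf5, the most abundant per kilobase, had log2 fold changes of -0.03 (SE 0.16) and -0.28 (SE 0.21), the latter -0.014 without AAV-Null 4 and -0.17 without AAV-Osm 5. Dbp at 1.47 lay above the range of these 41, whose values ran from -1.48 to 0.40. Nfil3 at -0.90 lay inside it only because of Fosb, at -1.48 (SE 0.74). Fosb was thinly expressed and uneven, at 2.40 ± 3.06 CPM (SD, n = 4) in AAV-Null. The next lowest was Jdp2 at -0.86, above Nfil3.

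Of ventricular cardiomyocyte markers 11 of 11 were present. Presence alone cannot check the tissue label, since 7 of 9 atrial and 12 of 12 macrophage markers were present too. The ventricular sum ran from 82037 to 108736 CPM over the AAV-Null libraries and from 82177 to 110068 CPM over the AAV-Osm libraries. The atrial sum ran from 362 to 682 CPM and from 406 to 889 CPM. Dbp, Tef and Hlf are abundant in liver, and 20 of 20 liver-type markers were detected, summing to 54.1, 78.8, 375 and 280 CPM across AAV-Null 1 to 4 and to between 60.2 and 171 CPM in AAV-Osm. All 20 had a negative log2 fold change, with a median of -1.31. An unadjusted p under 0.05 was found for 3 (5.97% of all genes), while 0 passed in edgeR. Their sum was highest in AAV-Null 3 and AAV-Null 4, so they are not 20 separate observations. The log2 sum differed by -0.50 in AAV-Osm (exact two-sided permutation p = 0.468, 0.680 adjusted over 8 marker lists). That difference was -0.048 without AAV-Null 3, -0.19 without AAV-Null 4 and 0.65 without both. With AAV-Null 3 and AAV-Null 4 left out, the log2 fold changes were 1.85 for Dbp, 0.61 for Tef, 0.06 for Hlf and -1.12 for Nfil3. Both libraries were the highest of AAV-Null for Dbp and the lowest for Nfil3. Leaving them out enlarges both differences whatever their liver-type RNA, so these values say nothing of its part. Leaving out AAV-Null 4 and AAV-Osm 5, another pair in doubt, gave 1.70 for Dbp and -0.95 for Nfil3. Nfil3 is also made by natural killer cells and other lymphocytes, of whose markers 6 of 20 were tested, with sums between 9.84 and 11.3 CPM in AAV-Null and between 10.8 and 14.1 CPM in AAV-Osm (exact two-sided permutation p = 0.0317, 0.254 adjusted over 8 marker lists). The part of liver-type or lymphocyte RNA in the levels of the members was not tested.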

How the data were processed

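The heart apex libraries were made from enriched messenger RNA and sequenced from both ends for 75 bases, per the labels' protocols. The submitters' processing notes name STAR 2.5.2b, Subread 1.5.1, featureCounts and the genome build mm10. They do not name the annotation, the strand setting or the treatment of reads that map more than once. The table deposited by the authors holds raw counts of each gene, and 4141 blank lines in it were left out. All 13192 genes were above 0.5 CPM in at least 4 libraries, so genes of lower level are not analysed here. Osm, the delivered gene, is among those not analysed here and could not check the labels. Total counts ran from 11841106 to 30625134, TMM factors from 0.923 to 1.10, and 0 pairs of libraries were identical.

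AAV-Osm was compared with AAV-Null by edgeR 4.0.16 (R 4.3.3), quasi-likelihood F test with robust dispersions, TMM and filterByExpr, adjusted by Benjamini-Hochberg over 13192 genes at 0.05. Alternatives were RLE and upper-quartile factors, total counts, DESeq2 1.42.0, limma 3.58.1 (voom, with and without quality weights), dispersions that are not robust, other filters, and libraries left out. Marker sums were compared by an exact permutation test over all regroupings of the libraries and correlations over 2880 orders within groups. RefSeq promoters matched all 4 members by symbol.

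The members, lists, tests and alternatives were chosen with earlier results of these data known. Named genes are the members, Arntl, Clock, Nr1d1, Nr1d2 and Rora, in each list the genes past the threshold and the 2 most abundant per kilobase, the 5 genes most like Dbp and the 5 most like Nfil3 (among genes averaging 1 CPM or more in both groups and at 0 in no library), and called D-box genes. Por, Sphk2, Jdp2, Creb3l1, Fosb, Per1, Cry1 and Bhlhe41 fall outside that rule and were named after their values were seen. An item of the upstream list is not reported here.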

Additional observations from a re-analysis of the deposited data

Results flagged for a closer look

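Of 50 groups of 4 or 5 values examined, 5 held a library that lay far from the others of its group, where chance gives about 1 in 20. None was a value of Dbp, Tef, Hlf, Nfil3 or the ratio of Dbp to Nfil3. Rora was at 60.6 CPM in AAV-Osm 4, with the next AAV-Osm library at 40.9. Atf5 was at 221 CPM in AAV-Null 4, the highest there, and at 82.9 CPM in AAV-Osm 5, with the next at 127. Summed red blood cell markers (2 of 6 tested) were at 222 CPM in AAV-Null 4, the next being 129. Summed skeletal muscle markers (6 of 11 tested) were at 6470 CPM there, the next being 5160. That sum is mostly Ckm, which averaged 5015 CPM in AAV-Null, and Acta1, at 420 CPM. The other genes tested averaged 2.11 CPM or less, so the sum does not show skeletal muscle RNA.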

How the results depend on the processing

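The number of genes past the threshold, 16 in edgeR, was 53 in DESeq2 and 170 with limma-voom quality weights, and 4 to 11 when 1 library was left out. Members past it, 1 in edgeR, were 2 in DESeq2 and 2 with quality weights (Dbp and Nfil3), and 0 to 1 with 1 library left out. Upstream regulators went from 0 to 1 in DESeq2, with quality weights and without both AAV-Null 4 and AAV-Osm 5, each time Arntl (-1.19, -1.51 and -1.48). That pair of libraries held the Arntl values nearest each other across the groups. Clock repressors went from 1 to 0 with total counts and without both AAV-Null 3 and AAV-Null 4, to 2 in DESeq2 and with quality weights (Ciart and Per1), and to 0 to 1 with 1 library left out. Other bZIP factors went from 0 to 2 with quality weights, and D-box genes from 0 to 1 in DESeq2 and 2 with quality weights. The cause was not tested. Of the 20 alternatives, the fit with no filter and that with dispersions that are not robust left the log2 fold changes of the members unchanged. Dbp, Tef, Hlf and Nfil3 kept their direction in all 20 and the ratio of Dbp to Nfil3 in all 12 that could alter its size. For Dbp, Nfil3 and their ratio the groups did not overlap. Leaving out libraries could therefore hardly reverse them, and the kept direction is no separate support. Log2 fold changes ran from 1.28 to 1.90 for Dbp and from 0.54 to 0.79 for Tef. They ran from 0.06 to 0.50 for Hlf and from -1.12 to -0.72 for Nfil3.

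Of the other values, the following changed sign, from 0.12 for Rora, 0.34 for Bhlhe40, -0.28 for Atf5, -0.026 for Nfe2l1, -0.04 for both correlations, and log2 differences in summed markers of -0.50 for liver, -0.18 for macrophages, -0.14 for adipocytes, -0.024 for red blood cells and -0.14 for skeletal muscle. With 1 library left out, the log2 fold change ran from -0.033 to 0.21 for Rora, from -0.090 to 0.47 for Bhlhe40 and from -0.14 to 0.051 for Nfe2l1. With quality weights Rora was at -0.051, Bhlhe40 at -0.21 and Atf5 at 0.030. Without both AAV-Null 3 and AAV-Null 4 Rora was at -0.067, Atf5 at 0.013, the within-group r of Dbp with Hlf at 0.37, and the log2 difference in summed markers at 0.65 for liver, 0.21 for macrophages, 0.13 for adipocytes and 0.26 for red blood cells. Without both AAV-Null 4 and AAV-Osm 5 Bhlhe40 was at -0.28, Atf5 at 0.095, Nfe2l1 at 0.099, the r of Hlf with Nfil3 at 0.023, and the marker sums at 0.077 for macrophages, 0.23 for red blood cells and 0.048 for skeletal muscle. With total counts the r of Hlf with Nfil3 was 0.17. With 1 library left out, the r ran from -0.14 to 0.10 for Dbp with Hlf and from -0.27 to 0.13 for Hlf with Nfil3, and marker sums from -0.31 to 0.046 for macrophages, -0.25 to 0.0047 for adipocytes and -0.22 to 0.20 for red blood cells.

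No paired analysis was possible because the replicate numbers only follow the order of the samples and pair no libraries. That Tef and Hlf missed the threshold with 4 and 5 libraries does not show that their levels were equal in both groups. Depth limits Nfil3 most, at 112 to 551 counts a library.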
